A study of Mus musculus with 24 samples.

Results

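Small leucine-rich proteoglycans are secreted matrix proteins built around a curved stack of leucine-rich repeats, many of which carry glycosaminoglycan chains. The set described here holds 10 of their genes, Dcn, Lum, Bgn, Fmod, Ogn, Aspn, Prelp, Omd, Kera and Podn, out of 19938 genes tested on the arrays. They were chosen by gene family, and each was read from the probe set that the platform annotation gives to that symbol alone. The brightest of several probe sets, by mean over the 24 arrays, was to be used, but all 10 genes had 1, so no measured value decided a probe set. The group was also selected on measured values in so far as earlier results of these arrays were known, in particular the line difference of Dcn in untreated myoblasts and the BMP4 change of Lum in MuSK-null myotubes, which are therefore given below as descriptions without a test.

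The arrays measured mouse muscle cells with and without MuSK, the receptor tyrosine kinase that organises the neuromuscular synapse, and asked whether MuSK alters the response to bone morphogenetic protein 4 (BMP4). There were 8 groups of 3 arrays: MuSK-null and wild-type myotubes and MuSK-null and wild-type myoblasts, each treated with BMP4 or left untreated. Both lines were immortalised with H-2Kb-tsA58, a temperature-sensitive large T antigen. Myotubes had differentiated for 3 days at 37 °C in horse serum, and myoblasts grew at 33 °C with interferon-gamma. BMP4 was given at 25 ng/ml for 8 h. Treated myoblasts were first deprived of serum for 4 h and treated myotubes were not. Whether this also held for untreated myoblasts is not stated, so BMP4 and serum cannot be told apart in the myoblast comparisons. Each genotype is 1 cell line, so genotype cannot be told apart from line. The labels call the 3 samples of a group biological replicates without saying what separated them. The p-values therefore cover sample-to-sample spread, which may be technical. In bulk RNA, fewer cells of a type and less RNA per cell cannot be told apart.

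These proteoglycans bind fibrillar collagen and set the diameter and spacing of its fibrils. Decorin, biglycan, fibromodulin and asporin also bind growth factors of the TGF-beta and BMP family, and in skeletal muscle they belong to the endomysium and tendon matrix made largely by fibroblastic cells and, for some members, by muscle cells themselves. Biglycan is also known as a ligand of MuSK at the synapse.

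All values are log2 signal as deposited, and a difference of 1 is a doubling of signal. Signals of different genes come from different probes and are not compared with each other. As a guide to background, 95% of 1027 olfactory receptor genes had a mean signal under 6.64, and signals under that are called dim. The probe set of Musk averaged 11.22 ± 0.04 in untreated MuSK-null myotubes and 12.72 ± 0.04 in untreated wild-type myotubes (SD, n = 3 each). It averaged 10.85 ± 0.14 in untreated MuSK-null myoblasts and 11.57 ± 0.07 in untreated wild-type myoblasts. It differed between MuSK-null and wild type by -1.51 in myotubes and -0.72 in myoblasts, but stayed well above background, so it checks the labels only in part. Id1, a standard BMP target, was raised by BMP4 in all 4 kinds of culture, by 2.19 in MuSK-null myotubes, 2.05 in wild-type myotubes, 0.99 in MuSK-null myoblasts and 2.44 in wild-type myoblasts. Untreated MuSK-null myoblasts already had 1.96 more Id1 signal than untreated wild-type myoblasts. Sets of 1 array from each myoblast group were searched for the set whose rows without a gene name deviated most alike. The 4 arrays chosen, called below those that deviated together, had a mean correlation of 0.41 over these rows, against 0.22 for the next set. The search fixed their number and stage. Over the genes tested the correlations of the deviations of these arrays ran from 0.42 to 0.54.

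**Figure D1:**
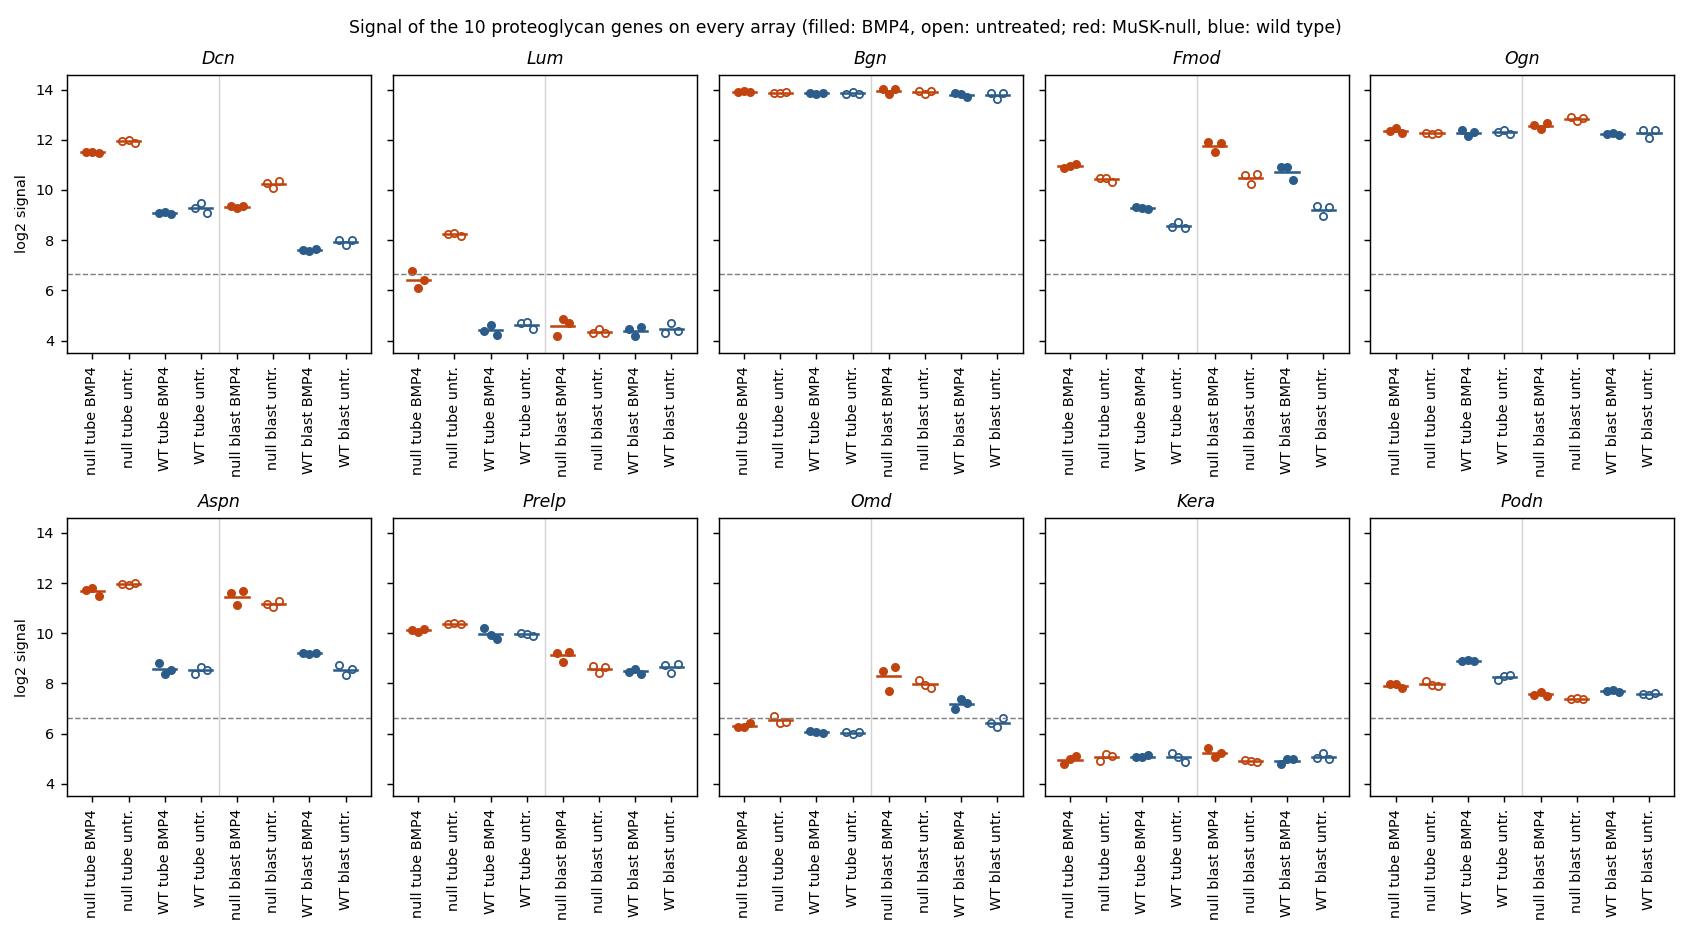
Log2 signal of each gene on every array. The 8 groups run along the horizontal axis, points are arrays, bars are group means, and the dashed line marks 6.64, the level under which 95% of olfactory receptor genes lie. Dcn, Fmod and Aspn stand higher in MuSK-null than in wild-type cells at both stages, Lum clears the line in untreated MuSK-null myotubes, and Bgn is level across all groups.

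The 10 genes differed widely in how far their signal moved. The range of the 8 group means was 4.35 for Dcn, 3.87 for Lum, 3.44 for Aspn, 3.19 for Fmod, 2.25 for Omd, 1.90 for Prelp and 1.51 for Podn. It was 0.60 for Ogn, 0.33 for Kera and 0.17 for Bgn, against a median of 0.455 over all genes tested. Thus 8 of the 10 genes had a wider range than the median gene, while Bgn moved less than most, since 93.4% of genes tested had a range at least as large.

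Sequences upstream of Fmod, Podn, Aspn and Omd are shown because these are the 4 members that BMP4 raised in wild-type cells. Prelp and Ogn, called with BMP4 in MuSK-null myoblasts, also had promoters, which are described without their letters. They are RefSeq promoters of build GRCm38.p6, from 250 bases before to 50 bases after the start, 5′ to 3′ on the strand of the gene. Of the 10 genes 8 had a promoter in the RefSeq table, 9 promoters in all. The motifs searched on both strands were the E-boxes CAGCTG and CACCTG, the Smad box GGCGCC and TATAAA. Of these, CAGCTG and GGCGCC read the same on both strands, and matches are in capitals. The windows lie at chr1:134037004-134037303 (plus strand) for Fmod, chr4:108031905-108032204 (minus strand) for Podn, chr13:49544193-49544492 (plus strand) for Aspn and chr13:49582212-49582511 (plus strand) for Omd.
Fmod: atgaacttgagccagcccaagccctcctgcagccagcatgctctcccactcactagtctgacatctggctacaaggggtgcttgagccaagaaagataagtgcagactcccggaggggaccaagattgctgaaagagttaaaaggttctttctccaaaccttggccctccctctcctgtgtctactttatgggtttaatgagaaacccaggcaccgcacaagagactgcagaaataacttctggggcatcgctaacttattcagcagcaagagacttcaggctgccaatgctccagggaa
Podn: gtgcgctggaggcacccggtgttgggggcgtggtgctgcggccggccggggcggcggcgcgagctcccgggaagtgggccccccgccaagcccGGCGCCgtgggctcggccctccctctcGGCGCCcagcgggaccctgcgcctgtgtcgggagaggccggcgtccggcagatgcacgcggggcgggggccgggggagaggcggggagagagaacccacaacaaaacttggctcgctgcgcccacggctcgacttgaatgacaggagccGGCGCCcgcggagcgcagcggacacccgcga
Aspn: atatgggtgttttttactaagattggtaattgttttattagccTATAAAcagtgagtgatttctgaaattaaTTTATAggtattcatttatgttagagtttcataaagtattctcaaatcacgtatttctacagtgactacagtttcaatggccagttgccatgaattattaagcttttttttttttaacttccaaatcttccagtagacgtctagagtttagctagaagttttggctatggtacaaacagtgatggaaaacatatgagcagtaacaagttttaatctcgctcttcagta
Omd: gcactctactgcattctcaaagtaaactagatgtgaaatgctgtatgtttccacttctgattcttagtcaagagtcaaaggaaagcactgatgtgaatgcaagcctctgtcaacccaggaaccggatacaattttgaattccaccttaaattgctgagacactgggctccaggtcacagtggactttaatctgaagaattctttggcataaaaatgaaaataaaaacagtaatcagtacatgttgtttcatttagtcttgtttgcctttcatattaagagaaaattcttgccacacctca
The Podn window held 3 matches to the Smad box, starting at -157, -130 and 20 from the start, in a sequence of 77.0% G and C. The Aspn window, of 31.0% G and C, held 2 matches to TATAAA, at -207 and, on the other strand, at -178. The windows of Fmod and Omd held no match, which says only that these letters are absent from these 300 bases. Of 32851 promoters of this length 11.9% held GGCGCC, 13.6% TATAAA, 16.3% CAGCTG and 20.2% CACCTG. A second Podn promoter, at chr4:108030937-108031236 (minus strand), held 1 CAGCTG and 2 CACCTG matches and no GGCGCC. Of the other members with a promoter, Bgn and Ogn each held 1 CAGCTG, Ogn also held 2 TATAAA matches, on opposite strands and overlapping, at -229 and -227, and Prelp and Kera held none.

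BMP4 raised fibromodulin in every kind of culture. Fmod encodes a keratan sulfate proteoglycan that binds collagen I and is abundant in tendon. In myoblasts its signal was 11.93, 11.51 and 11.88 in BMP4-treated MuSK-null cells, against 10.58, 10.24 and 10.62 in untreated MuSK-null cells. In wild-type myoblasts it was 10.92, 10.90 and 10.38 with BMP4, against 9.38, 8.95 and 9.34 untreated. Treated and untreated arrays did not overlap in either line, as held for 21.8% of all genes tested in MuSK-null and 23.3% in wild-type myoblasts. Fmod rose by 1.29 (SE 0.14, adjusted p = 4.02e-07) in MuSK-null cells and by 1.51 (SE 0.14, adjusted p = 2.64e-08) in wild-type cells. Every p given is from limma, with Benjamini-Hochberg adjustment across all 19938 genes, and genes with an adjusted p under 0.05 are named as called.

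In myotubes the Fmod rise was smaller. The signal was 10.88, 10.97 and 11.04 in BMP4-treated MuSK-null myotubes, against 10.49, 10.48 and 10.32 untreated. It was 9.32, 9.29 and 9.23 in BMP4-treated wild-type myotubes, against 8.54, 8.73 and 8.48 untreated. The groups again did not overlap, as held for 25.9% of all genes in MuSK-null and 24.7% in wild-type myotubes. Fmod rose by 0.53 (SE 0.14, adjusted p = 0.0113) in MuSK-null myotubes and by 0.70 (SE 0.14, adjusted p = 0.0014) in wild-type myotubes. The MuSK-null value fell to 0.47 (adjusted p = 0.062) without untreated replicate 3. The response was smaller in myotubes than in myoblasts, with a difference of -0.76 (SE 0.20, adjusted p = 0.0182) in MuSK-null and -0.82 (SE 0.20, adjusted p = 0.0169) in wild-type cells. The MuSK-null stage difference lost its call without untreated myoblast replicate 2 (-0.64, adjusted p = 0.0649), treated myoblast replicate 1 (-0.68, 0.0587) or treated myoblast replicate 3 (-0.71, 0.0535). The wild-type one lost its call without untreated myoblast replicate 2 (-0.68, adjusted p = 0.0595), treated myoblast replicate 1 (-0.72, 0.062) or 2 (-0.73, 0.0603), or untreated myotube replicate 2 (-0.74, 0.0598). The Fmod response did not pass a test of difference between the lines, with -0.22 (95% interval -0.63 to 0.19) in myoblasts and -0.17 (-0.57 to 0.24) in myotubes.

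Decorin went the other way. Dcn encodes a dermatan sulfate proteoglycan that binds collagen, TGF-beta and myostatin. Its signal was 9.35, 9.28 and 9.37 in BMP4-treated MuSK-null myoblasts, against 10.28, 10.06 and 10.36 untreated. In wild-type myoblasts it was 7.59, 7.57 and 7.63 with BMP4, against 8.02, 7.81 and 7.99 untreated. No treated array reached its untreated group in either line. Dcn fell by 0.90 (SE 0.08) in the MuSK-null line and by 0.34 (SE 0.08) in the wild-type line. Both are descriptions, since they rest on the untreated myoblast arrays of the Dcn line difference known beforehand. The difference between these responses was -0.56 (SE 0.12). It contains the untreated line difference of Dcn known beforehand and is given as a description.

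In MuSK-null myotubes Dcn was 11.50, 11.52 and 11.46 with BMP4, against 11.97, 12.00 and 11.87 untreated. These groups did not overlap, and the change was -0.45 (SE 0.08, adjusted p = 0.000444). In wild-type myotubes Dcn was 9.10, 9.13 and 9.04 with BMP4, against 9.27, 9.47 and 9.10 untreated. These groups overlapped and the change was -0.19 (SE 0.08, adjusted p = 0.191), which became -0.28 (adjusted p = 0.0448) without untreated replicate 3. The myotube responses of the lines differed by -0.26 (95% interval -0.50 to -0.02, adjusted p = 0.318), which did not pass.

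Lumican, a keratan sulfate proteoglycan and close neighbour of decorin in the genome, was dim in 7 of 8 groups by its mean. Lum signal was 6.77, 6.10 and 6.40 in BMP4-treated MuSK-null myotubes, against 8.23, 8.30 and 8.17 in untreated ones. On the other 18 arrays it lay between 4.17 and 4.87. Only the untreated MuSK-null myotubes stood clear of background on every array, and treated arrays lay below all of them by over 1 unit. The change was -1.81 (SE 0.16), given as a description. It was -0.22 (SE 0.16, adjusted p = 0.543) in wild-type myotubes, where both groups were dim. The difference of responses, -1.60 (SE 0.23), contains the value known beforehand and is also a description. Because the other groups were dim, the size of their differences from untreated MuSK-null myotubes cannot be read as a fold.

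Podocan, a more distant member of the family, was called under BMP4 in wild-type myotubes alone. Podn signal was 8.90, 8.93 and 8.88 in BMP4-treated wild-type myotubes, against 8.12, 8.30 and 8.32 untreated. In MuSK-null myotubes it was 7.97, 7.97 and 7.82 with BMP4, against 8.08, 7.96 and 7.91 untreated. The wild-type groups were apart and the MuSK-null groups overlapped. Podn rose by 0.66 (SE 0.07, adjusted p = 1.98e-07) in wild-type myotubes, against a change of -0.06 (SE 0.07, adjusted p = 0.726) in MuSK-null myotubes. The responses differed by -0.71 (SE 0.09, adjusted p = 3.65e-05). Within wild-type cells the myotube response exceeded the myoblast response by 0.54 (SE 0.09, adjusted p = 0.000869), the myoblast change being 0.11 (SE 0.07, adjusted p = 0.421).

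Asporin and osteomodulin, neighbours on chromosome 13, rose with BMP4 in wild-type myoblasts. Aspn, which binds collagen and BMP2, was 9.21, 9.18 and 9.20 with BMP4, against 8.74, 8.33 and 8.56 untreated. Omd, a keratan sulfate proteoglycan of bone, was 6.97, 7.37 and 7.22 with BMP4, against 6.41, 6.26 and 6.63 untreated. In both genes all treated arrays lay above all untreated ones, and the untreated Omd arrays were all dim. The rise was 0.65 (SE 0.13, adjusted p = 0.00119) for Aspn and 0.76 (SE 0.16, adjusted p = 0.0022) for Omd.

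In MuSK-null myoblasts neither gene passed. Aspn was 11.60, 11.11 and 11.67 with BMP4, against 11.15, 11.06 and 11.27 untreated, a change of 0.30 (adjusted p = 0.219). Omd was 8.50, 7.70 and 8.66 with BMP4, against 8.13, 7.95 and 7.81 untreated, a change of 0.32 (adjusted p = 0.319). In both, treated replicate 2 was the lowest treated array and lay within or below the untreated range. That array is 1 of the 4 that deviated together, and without it Aspn changed by 0.48 (adjusted p = 0.0165) and Omd by 0.62 (adjusted p = 0.00114). Without all 4 of those arrays Omd was called (0.61, adjusted p = 0.00518) and Aspn was not (0.43, 0.0535). The responses of the lines did not pass a test of difference, at -0.35 (95% interval -0.74 to 0.04) for Aspn and -0.44 (-0.91 to 0.04) for Omd.

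Prelp, a proteoglycan-like protein with a basic end that binds heparin, was 9.23, 8.86 and 9.27 in BMP4-treated MuSK-null myoblasts, against 8.68, 8.43 and 8.67 untreated. The groups did not overlap, and Prelp rose by 0.53 (SE 0.11, adjusted p = 0.00233). It was, in wild-type myoblasts, 8.47, 8.57 and 8.39 with BMP4, against 8.75, 8.41 and 8.78 untreated, with overlap and a change of -0.17 (adjusted p = 0.492). The difference of responses was 0.70 (SE 0.16, adjusted p = 0.0134). It was 0.63 (adjusted p = 0.0503) without treated MuSK-null replicate 3, and was not called with only the compared groups in the fit. In MuSK-null myotubes Prelp was not called, but was at -0.25 without the 4 arrays that deviated together (adjusted p = 0.0358).

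Ogn (osteoglycin or mimecan) was 12.57, 12.42 and 12.68 in BMP4-treated MuSK-null myoblasts, against 12.90, 12.75 and 12.85 untreated. The groups were apart by a narrow gap. The change of -0.28 (SE 0.08, adjusted p = 0.0417) was near the threshold and lost the call in 4 of 6 fits that left out 1 array, at -0.21 (adjusted p = 0.2) without treated replicate 2, -0.25 (0.169) without untreated replicate 1, -0.27 (0.116) without untreated replicate 3 and -0.28 (0.0935) without treated replicate 1. It was also lost with only the compared groups in the fit (-0.28, adjusted p = 0.119) and without the 4 arrays that deviated together (-0.25, 0.0666). Ogn was not called in the other 3 kinds of culture, with changes from -0.07 to 0.11.

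Biglycan was level. Bgn, the closest relative of decorin, had signals between 13.62 and 14.03 on all 24 arrays. It was called in 0 of 13 comparisons, whose log2 differences ran from -0.10 to 0.12 and whose 95% intervals all lay between -0.30 and 0.26. With the 4 arrays that deviated together as a block, its difference of 0.12 between the lines in untreated myoblasts was called (adjusted p = 0.0345). Whether its signal was saturated was not tested. Keratocan, the corneal member, was dim in all 8 groups: Kera signals lay between 4.78 and 5.45, and it was also called in 0 of 13 comparisons. Without treated MuSK-null myoblast replicate 2, Kera was called for the BMP4 response of those cells (0.42, adjusted p = 0.0209) and for its differences between the lines (0.60, 0.0383) and between the stages (-0.52, 0.0459), all within dim signals. Without all 4 deviating arrays the BMP4 response of Kera there was 0.42 (adjusted p = 0.0429).

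**Figure D2:**
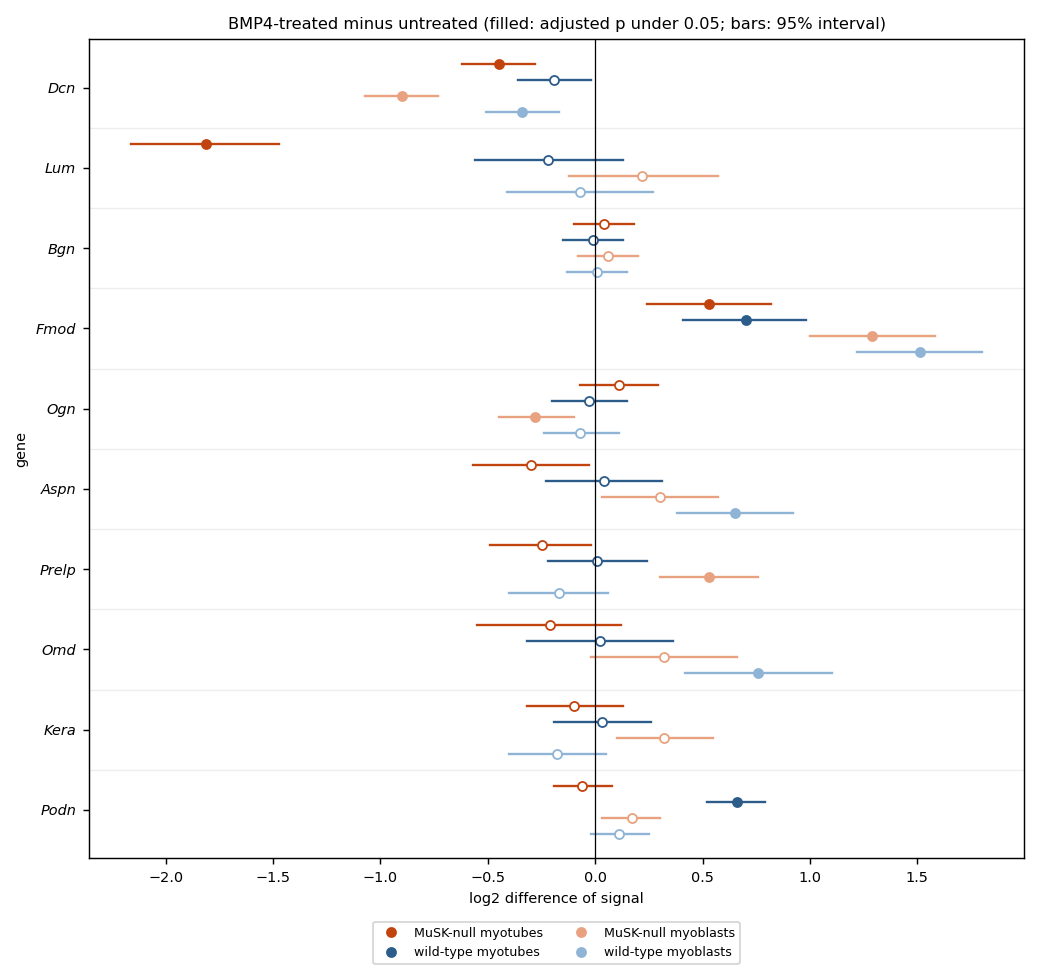
Log2 difference between BMP4-treated and untreated cells for each gene in the 4 kinds of culture. Points are limma estimates from 3 against 3 arrays, bars are 95% intervals, and filled points have an adjusted p under 0.05. Fmod lies right of 0 in all 4 cultures, Dcn left of 0 with wild-type myotubes not called, Lum changes by -1.81 in MuSK-null myotubes, and Podn by 0.66 in wild-type myotubes.

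Counted over the 10 genes, BMP4 changed 3 in MuSK-null myotubes (Fmod higher, Dcn and Lum lower), where 11.3% of all genes tested were called (5.36% higher, 5.90% lower). It changed 2 in wild-type myotubes (Fmod and Podn higher), against 8.77% of all genes (4.40% higher, 4.37% lower). In MuSK-null myoblasts 4 were called (Fmod and Prelp higher, Dcn and Ogn lower), against 8.42% (3.89% higher, 4.52% lower). In wild-type myoblasts 4 were called (Fmod, Aspn and Omd higher, Dcn lower), against 11.0% (5.21% higher, 5.76% lower). The median change over the 10 genes was -0.16, 0.02, 0.26 and -0.03 in the same order, beside medians from -0.01 to 0.02 over all genes. Fmod was the gene called in all 4. The difference between the lines' responses was called for 2 members in myoblasts (Dcn lower and Prelp higher), where 2.39% of genes were called (1.17% higher, 1.22% lower). It was called for 2 in myotubes (Lum and Podn, both lower), where 3.21% were (1.50% higher, 1.71% lower). The difference between stages was called for 4 members in MuSK-null cells (Dcn higher, Lum, Fmod and Prelp lower), against 6.16% of genes (3.24% higher, 2.92% lower). It was called for 2 in wild-type cells (Podn higher, Fmod lower), against 3.42% (1.92% higher, 1.50% lower). The Lum change known beforehand is among the 3 called in MuSK-null myotubes and is contained in both differences called for Lum. The Dcn difference known beforehand is contained in the difference called for Dcn between the lines in myoblasts. The Dcn calls with BMP4 in both myoblast cultures, and between the stages in MuSK-null cells, rest on the untreated myoblast arrays of that difference.

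The lines differed before any treatment. In untreated myotubes Aspn was 11.97, 11.91 and 12.02 in MuSK-null cells, against 8.38, 8.66 and 8.55 in wild-type cells. In untreated myoblasts it was 11.15, 11.06 and 11.27 in MuSK-null cells, against 8.74, 8.33 and 8.56 in wild-type cells. The lines were far apart at both stages, by 3.44 (SE 0.13, adjusted p = 1.22e-15) in myotubes and 2.61 (SE 0.13, adjusted p = 1.62e-13) in myoblasts. The MuSK-null excess of Dcn was 2.66 (SE 0.08, adjusted p = 2.63e-17) in untreated myotubes and, as a description, 2.30 (SE 0.08) in untreated myoblasts. That of Fmod was 1.85 (SE 0.14, adjusted p = 1.74e-10) and 1.26 (SE 0.14, adjusted p = 1.22e-07). All arrays of the MuSK-null groups were above all those of wild type for these 3 genes at both stages, while 50.0% of all genes did not overlap in myotubes and 39.8% in myoblasts. Lum, dim in wild type, was 3.59 (SE 0.16) higher in untreated MuSK-null myotubes. This is a description, since it rests on the untreated arrays of the Lum change known beforehand. In myoblasts, where both lines were dim, Lum differed by -0.11 (adjusted p = 0.699).

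Omd was 1.53 (SE 0.16, adjusted p = 7.48e-08) higher in MuSK-null myoblasts and 0.49 (SE 0.16, adjusted p = 0.0202) higher in MuSK-null myotubes. The myotube means were both dim, and that call was lost without MuSK-null replicate 1 (0.41, adjusted p = 0.0941) or wild-type replicate 2 (0.47, adjusted p = 0.06). Ogn was 0.54 (SE 0.08, adjusted p = 2.1e-05) higher in MuSK-null myoblasts and differed by -0.06 (adjusted p = 0.649) in myotubes. Prelp was 0.41 (SE 0.11, adjusted p = 0.00486) higher in MuSK-null myotubes and differed by -0.06 (adjusted p = 0.791) in myoblasts.

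Podn was the member called lower in MuSK-null cells, with differences of -0.27 (SE 0.07, adjusted p = 0.00223) in myotubes and -0.20 (SE 0.07, adjusted p = 0.0206) in myoblasts. The myoblast call was lost without any 1 of 4 arrays, with adjusted p-values from 0.0532 to 0.08. Those arrays were untreated replicates 1 and 3 of each line. In all, 7 of 10 members were called between untreated myotubes of the lines (6 higher, 1 lower). Of all genes 37.4% were called there (19.4% higher, 18.0% lower). Lum is among the 7, and its difference rests on untreated arrays of the Lum change known beforehand. In untreated myoblasts 6 of 10 were called (5 higher, 1 lower), where 31.3% of all genes were (15.3% higher, 16.0% lower), and the Dcn difference known beforehand is among the 6. The median difference over the 10 genes was 0.45 in myotubes and 0.33 in myoblasts, beside 0.04 and -0.01 over all genes.

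Stage was compared in untreated cells. Dcn was higher in myotubes by 1.71 (SE 0.08) in the MuSK-null line and by 1.34 (SE 0.08) in the wild-type line. Both are descriptions, since they rest on the untreated myoblast arrays of the Dcn line difference known beforehand. Prelp was 10.36, 10.40 and 10.38 in MuSK-null myotubes, against 8.68, 8.43 and 8.67 in MuSK-null myoblasts. In wild type it was 10.00, 9.99 and 9.90 in myotubes, against 8.75, 8.41 and 8.78 in myoblasts. The stages did not overlap in either line, as held for 49.4% of all genes in MuSK-null and 53.3% in wild-type cells, and Prelp was higher in myotubes by 1.79 (SE 0.11, adjusted p = 4.21e-12) and 1.32 (SE 0.11, adjusted p = 8.29e-10). Podn was also higher in myotubes of both lines, by 0.59 (SE 0.07, adjusted p = 8.06e-08) in MuSK-null and 0.65 (SE 0.07, adjusted p = 1.36e-08) in wild-type cells.

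For the other members a stage call was made in 1 line. Lum was higher in MuSK-null myotubes than in MuSK-null myoblasts by 3.87 (SE 0.16). This is a description, since it rests on the untreated myotube arrays of the Lum change known beforehand. In wild type, where both stages were dim, Lum was higher by 0.17 (adjusted p = 0.456). Aspn was higher in MuSK-null myotubes by 0.81 (SE 0.13, adjusted p = 1.91e-05), against -0.01 (adjusted p = 0.945) in wild type. Omd was lower in MuSK-null myotubes, with a change of -1.44 (SE 0.16, adjusted p = 1.06e-07), against -0.39 (adjusted p = 0.0537) in wild type, a value that was called with the replicate number as a block and in 5 other settings. Ogn was lower in MuSK-null myotubes, with a change of -0.57 (SE 0.08, adjusted p = 4.98e-06), against 0.02 (adjusted p = 0.865). Fmod was lower in wild-type myotubes, with a change of -0.64 (SE 0.14, adjusted p = 0.000471), against -0.05 (adjusted p = 0.828) in MuSK-null cells. With the 4 arrays that deviated together as a block, the MuSK-null value was -0.19 (adjusted p = 0.0231) and was called.

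The difference between the lines in these stage changes was itself called for 7 of 10 members, where 29.1% of all genes were called (14.9% higher, 14.1% lower). It was 3.71 for Lum, a description that rests on the same untreated MuSK-null myotube arrays. For Aspn it was 0.82 (adjusted p = 0.00149), for Omd -1.04 (0.0012) and for Ogn -0.60 (0.000457). It was 0.59 for Fmod (0.0257), 0.47 for Prelp (0.028) and 0.37 for Dcn, a description that contains the Dcn difference known beforehand. These 3 calls were lost without untreated wild-type myoblast replicate 1, untreated MuSK-null myoblast replicate 2 or untreated wild-type myotube replicate 3. Without the MuSK-null array they were 0.47 for Fmod (adjusted p = 0.0839), 0.39 for Prelp (0.0851) and 0.28 for Dcn (0.072). Fmod and Prelp also lost the call without wild-type myoblast replicate 3 or MuSK-null myotube replicate 2, and Fmod without replicate 1 of either line's myotubes. Stage calls were made for 7 of 10 members in MuSK-null cells (5 higher, 2 lower), against 41.6% of all genes (18.2% higher, 23.4% lower). They were made for 4 of 10 in wild-type cells (3 higher, 1 lower), against 45.0% (20.3% higher, 24.7% lower). The Dcn calls in both lines and the Lum call in MuSK-null cells rest on arrays of the differences known beforehand. Stage cannot be told apart from temperature, serum and interferon-gamma, which the protocols changed with it.

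**Figure D3:**
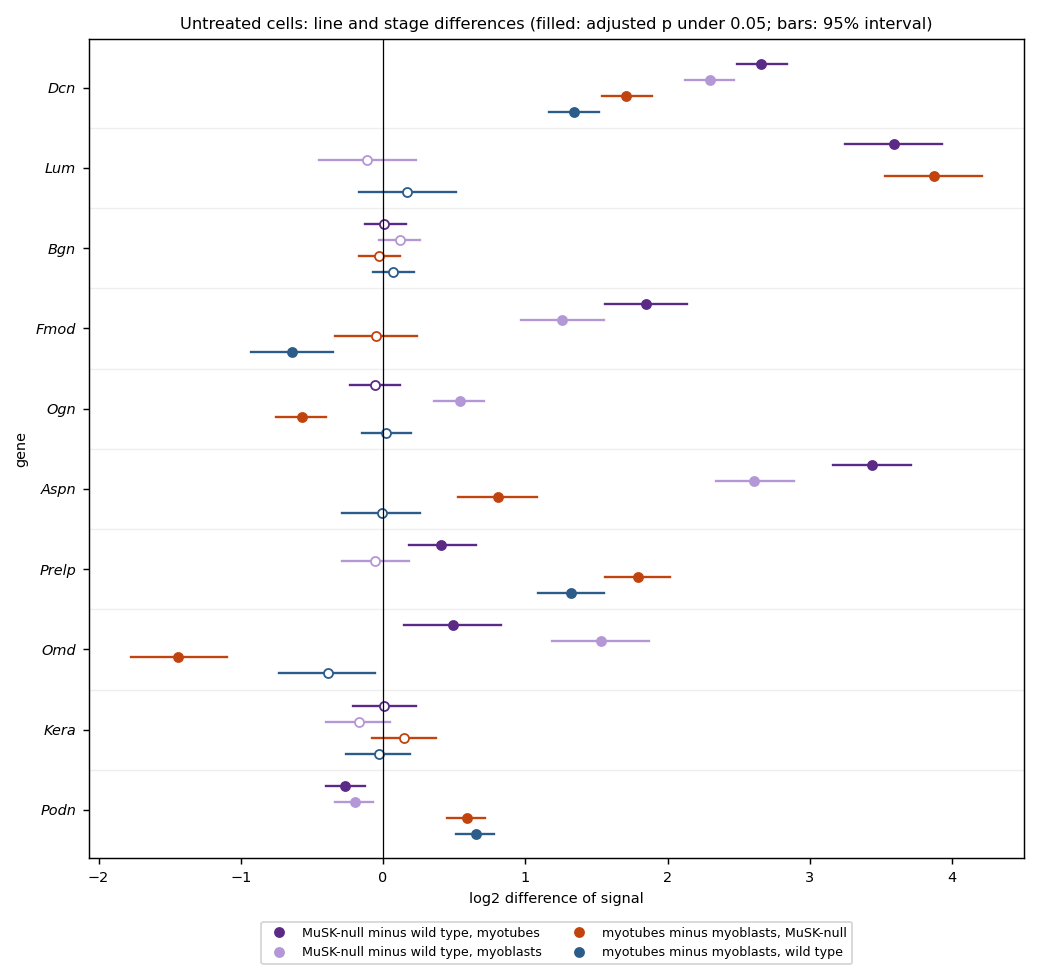
Log2 differences in untreated cells between the lines (purple, MuSK-null minus wild type) and between the stages (orange and blue, myotubes minus myoblasts). Bars are 95% intervals and filled points have an adjusted p under 0.05. Aspn, Dcn and Fmod are higher in the MuSK-null line at both stages, and Dcn, Prelp and Podn are higher in myotubes of both lines.

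Of the members, 8 lie in 3 chromosomal clusters by the RefSeq order of GRCm38.p6: Dcn, Lum and Kera on chromosome 10, Aspn, Omd and Ogn on chromosome 13, and Prelp and Fmod on chromosome 1. Neighbours within a cluster did not share 1 pattern in every comparison. On chromosome 10 Dcn was higher in MuSK-null cells at both stages, Lum in myotubes, and Kera, dim in all groups, at neither. In myoblasts Lum was dim in both lines. On chromosome 13 Aspn, Omd and Ogn were all called higher in untreated MuSK-null myoblasts, by 2.61, 1.53 and 0.54. In untreated myotubes Aspn differed between the lines by 3.44, Omd, with both means dim, by 0.49 and Ogn by -0.06. The flanking proteoglycan gene Ecm2 was dim and differed by -0.10 (adjusted p = 0.417). Epyc, the family gene that flanks Kera on chromosome 10, was called higher in untreated MuSK-null cells at both stages. Optc, which flanks Prelp on chromosome 1, was higher in untreated MuSK-null myotubes (0.36, adjusted p = 3.19e-05) and was not called in myoblasts. Cenpp, a centromere protein gene whose RefSeq span covers Aspn, Omd and Ogn, rose with BMP4 in wild-type myoblasts by 0.61 (SE 0.10, adjusted p = 0.000105), the culture in which Aspn and Omd rose. In MuSK-null myoblasts Cenpp changed by -0.09 (adjusted p = 0.739). Whether probes of these overlapping genes read the same transcripts was not tested.

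**Figure D4:**
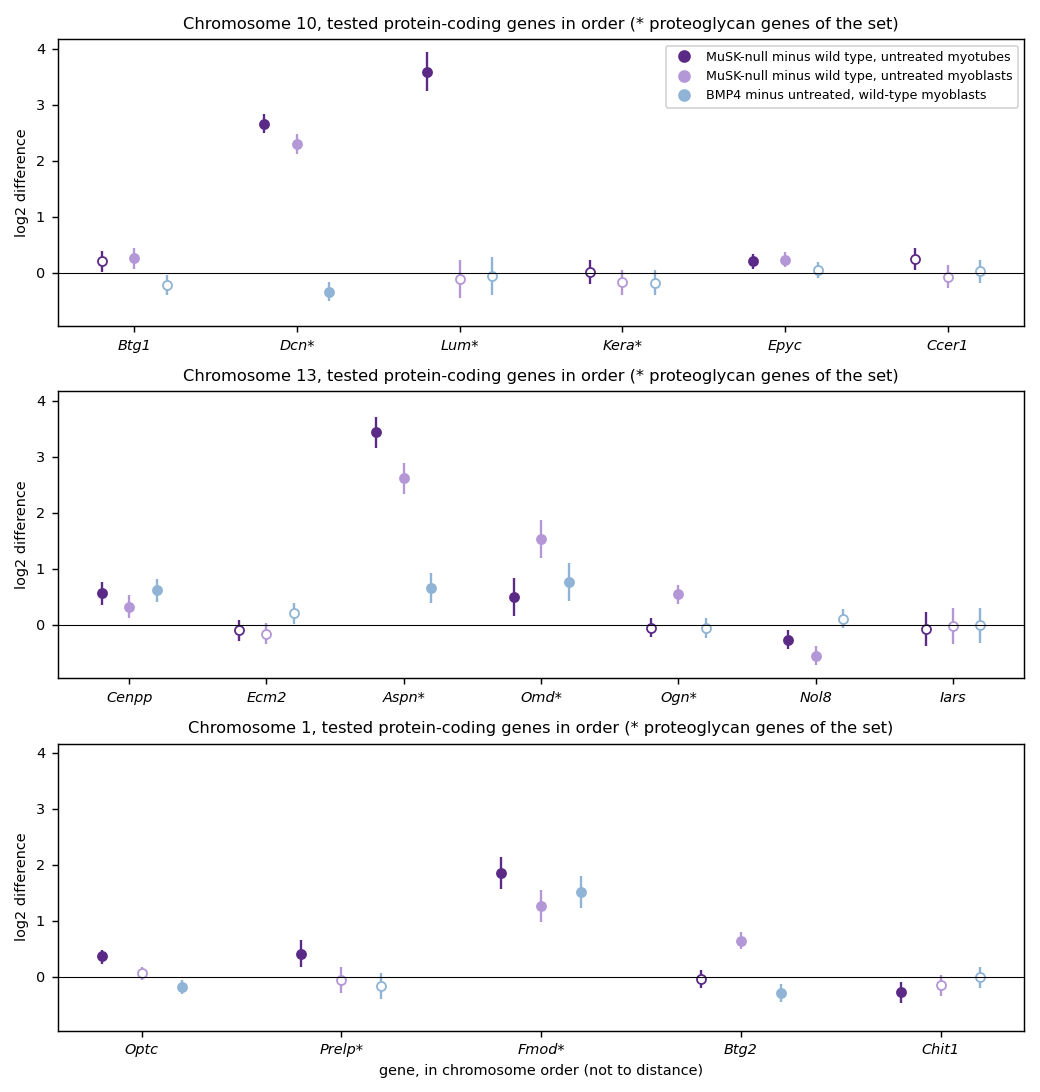
Log2 differences for the tested protein-coding genes of the 3 clusters, in chromosome order and not to distance, with members starred. Colours stand for the line difference in untreated myotubes, that in untreated myoblasts and the BMP4 response of wild-type myoblasts. Bars are 95% intervals and filled points have an adjusted p under 0.05. Differences above 1 are those of Dcn, Lum, Aspn, Omd and Fmod, while the other genes drawn stay within 1 unit of 0 in these 3 comparisons.

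The 3 members with the widest range were also compared with all 4040 genes whose group means spanned at least 1 unit, by Pearson's r over the 8 group means. The genes most like Dcn were Rnf128 (r = 0.9861), Stk40 (0.9858) and Ube2q2 (0.9856). Those most like Lum were Dpysl5 (0.9950), Tnfsf18 (0.9894) and Atp2b3 (0.9873). Those most like Aspn were Nrep (0.9867), Ccn3 (0.9843) and Col1a1 (0.9838), the last encoding the main chain of collagen I. Among members, r over the 8 group means was 0.82 for Dcn and Lum, 0.79 for Dcn and Aspn, 0.78 for Fmod and Aspn and -0.72 for Omd and Podn. All these values share the same 24 arrays and are descriptions. Lum was dim in every group but untreated MuSK-null myotubes, so its r values rest mainly on the MuSK-null myotube groups.

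Genes that work with the proteoglycans were read from lists chosen with earlier results known. Of 18 collagens and fibril partners, 12 were higher and 1 lower in untreated MuSK-null myotubes, and 13 higher and 2 lower in untreated MuSK-null myoblasts, with a median of 0.81 and 0.44. Col6a3, a chain of collagen VI, was higher by 3.34 (SE 0.05, adjusted p = 3.57e-22) and 1.84 (SE 0.05, adjusted p = 9.16e-18), and Col1a1 by 1.58 and 1.52. BMP4 did not call Col1a1 in any culture, with changes from -0.02 to 0.18. Of 13 ligands that the proteoglycans bind, BMP4 raised 4 to 5 and lowered 1 to 4 in each culture. Of all genes, 8.42% to 11.3% were called with BMP4, either direction, in these cultures. Tgfb1 rose by 0.80 in MuSK-null myotubes, 0.77 in wild-type myotubes, 0.49 in MuSK-null myoblasts and 0.52 in wild-type myoblasts. The transcript of Bmp4 itself was higher in MuSK-null cells by 1.78 (SE 0.11, adjusted p = 8.99e-12) in myotubes and 1.64 in myoblasts. Of the 13 ligands as a whole, 4 were higher and 6 lower in untreated MuSK-null myotubes (median -0.19), and 2 higher and 4 lower in untreated MuSK-null myoblasts (median -0.12). Bmp2 was among the lower at both stages, at -3.10 (adjusted p = 8.85e-13) in myotubes and -1.44 (adjusted p = 4.24e-07) in myoblasts. Of 15 receptors of the proteoglycans 4 were higher and 5 lower in untreated MuSK-null myotubes, with a median of 0.01. In untreated MuSK-null myoblasts 11 were higher and 1 lower, with a median of 0.42 and Igf1r at 1.01. The shares of all genes called between the lines were 37.4% in myotubes and 31.3% in myoblasts.

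Among enzymes that build the sugar chains, some were called with BMP4 in each culture. Of 22 chondroitin and dermatan sulfate enzymes 6 were called in MuSK-null myotubes, 5 in wild-type myotubes, 7 in MuSK-null myoblasts and 6 in wild-type myoblasts, against 11.3%, 8.77%, 8.42% and 11.0% of all genes. Chst15, a chondroitin sulfotransferase, fell in all 4, with changes of -1.04, -0.97, -1.19 and -1.66 in that order, and Chst11 rose in all 4, by 0.50, 0.68, 0.58 and 0.44. Of 12 keratan sulfate enzymes 4, 3, 4 and 7 were called, and St3gal1, a sialyltransferase, rose by 1.65, 1.38, 0.60 and 0.65. Among 13 proteases and cofactors that cleave these proteoglycans, Adamts5 fell in all 4, with changes of -0.50, -0.66, -0.99 and -1.68. Of the 7 other family members measured, Podnl1 rose with BMP4 by 0.58 in MuSK-null and 0.67 in wild-type myoblasts. It differed by -1.08 between the lines in untreated myotubes, lower in MuSK-null cells. In those myotubes 2 of the 7 were called higher (Optc and Epyc) and 1 lower, against 37.4% of all genes called. In untreated MuSK-null myoblasts 1 was higher (Epyc) and 0 lower, against 31.3%. Optc was lower with BMP4 in MuSK-null myotubes (-0.28, adjusted p = 0.00149), wild-type myotubes (-0.19, 0.0411) and wild-type myoblasts (-0.19, 0.0442).

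Markers of other cell types were compared between the untreated lines. Of 13 fibroblast markers 6 were higher and 3 lower in untreated MuSK-null myotubes, and 7 higher and 3 lower in untreated MuSK-null myoblasts, beside 37.4% and 31.3% of all genes called. Their mean signal per array was 9.51 to 9.63 in untreated MuSK-null myotubes and 9.24 to 9.30 in untreated wild-type myotubes. It was 9.61 to 9.65 in untreated MuSK-null myoblasts and 9.39 to 9.42 in untreated wild-type myoblasts. None of the 13 was dim in every group. Of 12 muscle markers 10 were lower and 1 higher in untreated MuSK-null myoblasts, where their mean was 9.81 to 9.86, against 11.48 to 11.51 in wild type. In untreated MuSK-null myotubes 8 of the 12 were lower and 1 higher, and their mean was 12.37 to 12.41, against 12.52 to 12.57 in wild type. Of 8 tendon markers 5 were higher and 1 lower in the MuSK-null line at both stages, while Tnmd was dim in every group. Of 10 bone and cartilage markers measured, 1 was higher and 3 lower in untreated MuSK-null myotubes, and 2 higher and 3 lower in untreated MuSK-null myoblasts. Ibsp, Phex and Acan were dim in every group. BMP4 raised 1 of the 10 and lowered 1 in MuSK-null myotubes and raised 4 in each other culture, Sp7 in all 4. With BMP4, 8.42% to 11.3% of all genes were called in these cultures. The part of these marker differences in the line differences of Dcn, Lum, Aspn, Fmod and Omd was not tested. Markers of endothelial cells, macrophages and adipocytes averaged under 6.64 on every array. In each list 3 of 5 were dim in every group. These were Kdr, Tek and Emcn (endothelial), Adgre1, Csf1r and Ptprc (macrophage), and Adipoq, Fabp4 and Lep (adipocyte). The others were not dim in at least 1 group. Between the untreated lines 0 of 5 endothelial markers were called at either stage. Of 5 macrophage markers 1 was higher and 1 lower in MuSK-null myotubes and 0 were called in myoblasts, and of 5 adipocyte markers 1 was higher in MuSK-null myotubes and 0 were called in myoblasts.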

How the data were processed

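The data are 24 Affymetrix arrays. The deposited values are log2 signals, 1 per probe set and array, read as such from their range of 2.50 to 15.03. Per the submitters' processing notes the tools were Affymetrix Expression Console and Partek, without version or role. How background and normalization were handled is not given in the sources. Array medians lay between 7.38 and 7.50, and the number of arrays limits the precision. Of 35556 rows 21789 had 1 gene in the platform annotation, and the row with the highest mean was kept per gene.

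In R 4.3.3, limma 3.58.1 fitted the 8 group means jointly, and 13 contrasts were tested with moderated statistics and Benjamini-Hochberg adjustment over the 19938 genes. The procedure was tested on simulated data. The genes and lists were chosen with earlier results of these data known. All 10 members are named, with Musk and Id1. From each other list at most 2 called genes per direction and contrast are eligible, those with the largest change among genes whose groups do not overlap. Each of the 3 widest-ranging members has its 3 most alike genes. Col1a1 under BMP4 and the values of list genes in further cultures are given for completeness.

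Replicate numbers were checked for pairing. Every same-numbered pair had a correlation of deviations above 0.1 in 2 comparisons, the BMP4 response of MuSK-null myoblasts (0.12 to 0.46) and the lines in untreated myoblasts (0.22 to 0.42). Alternatives were fitting the arrays of each comparison alone, trended robust moderation, a filter on genes under 6 log2 units, quantile normalization, centring on array medians, testing every row separately, the replicate block, the 4 arrays that deviated together as a block or left out, and leaving out each array. Protein sequences were not used here.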

Additional observations from a re-analysis of the deposited data

Results flagged for a closer look

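These results stand out because the change of a gene differed between the lines or between the stages by a test of the difference itself, an interaction term in limma.

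Between the lines, the BMP4 response in myoblasts differed for Dcn (-0.56) and Prelp (0.70, adjusted p = 0.0134). In myotubes it differed for Lum (-1.60) and Podn (-0.71, adjusted p = 3.65e-05). Each value is MuSK-null minus wild type. Those of Dcn and Lum contain a difference known beforehand.

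Between the stages, the BMP4 response in MuSK-null cells differed for Dcn (0.45) and Lum (-2.04). It also differed there for Fmod (-0.76, adjusted p = 0.0182) and Prelp (-0.78, adjusted p = 0.0023). In wild-type cells the response differed for Fmod (-0.82, adjusted p = 0.0169) and Podn (0.54, adjusted p = 0.000869). Each value is myotubes minus myoblasts. That of Lum contains the change known beforehand. That of Dcn rests on the untreated MuSK-null myoblast arrays of the line difference known beforehand. The Dcn call was lost without untreated MuSK-null myoblast replicate 1 (0.42, adjusted p = 0.0576) or 3 (0.38, 0.0692), treated myoblast replicate 2 (0.42, 0.0503) or untreated myotube replicate 3 (0.41, 0.0645).

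The change from myoblasts to myotubes in untreated cells differed between MuSK-null and wild type for Dcn (0.37), Lum (3.71), Fmod (0.59), Ogn (-0.60), Aspn (0.82), Prelp (0.47) and Omd (-1.04). The Dcn value contains the line difference known beforehand. That of Lum rests on the untreated MuSK-null myotube arrays of the Lum change known beforehand.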

How the results depend on the processing

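Of 130 member changes 54 were called. Under 9 other settings and on leaving out single arrays 43 kept the call, 11 lost it without at least 1 array, 4 lost it under another setting and 0 reversed, while 15 changes that were not called became called. Genes called for the BMP4 response of MuSK-null myoblasts numbered 1115 with only the compared groups in the fit, against 1678. For the difference of myoblast responses 1 member was called with only the compared groups, against 2, and 745 genes with the 4 deviating arrays as a block, against 477. That block gave 1011 genes for the myotube difference, against 640, and 4 members and 1028 genes for the wild-type stage difference of responses, against 2 and 682. Without those arrays 7 members were called for the MuSK-null stage difference, against 4. The causes were not tested.

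Leaving out single arrays gave 1 to 3 members for the myoblast difference (1 without treated MuSK-null replicate 3). It gave 4 to 7 for the difference of stage changes, with 4 without untreated wild-type myoblast replicate 1, MuSK-null myoblast replicate 2 or wild-type myotube replicate 3. It gave 1 to 3 for the wild-type stage difference of responses, with 1 without untreated myoblast replicate 2, treated myoblast replicates 1 or 2, or untreated myotube replicate 2. With the replicate block 5 members were called for stage in wild-type cells, against 4, the added gene being Omd, and no other member call changed. With median centring 33.9% of genes called for the BMP4 response of MuSK-null myoblasts were higher, against 46.2%. It gave 36.7% for the myoblast difference, against 48.8%, and 64.4% for the MuSK-null stage difference of responses, against 52.5%. Signals under 6.64 limit what can be read for Lum, Omd and Kera.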
